A study of Saccharomyces cerevisiae with 10 samples.

Results

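Chromosome X of Saccharomyces cerevisiae was read at 1025 SNPs with probes for both alleles, of 13461 SNPs measured over the 16 chromosomes. The members are all probes whose names place them on chromosome X, so that position alone decides membership. The chromosome itself was chosen by the log2 ratios of HK10, in which S and Y homozygous runs alternate along it. The log2 ratios of HK10 on this chromosome are therefore given as a description, with no test.

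The series holds 10 diploid isolates, each hybridised to its own array. HK10 and HK12 were represented by purified isolates A and B of each name. Zygotes from matings of MD893-1 (4 zygotes) or MD893-2 (2 zygotes) with LSY3454-2 made up the rest. All 10 isolates and the control carry the label of diploid, and every isolate is labelled as W303-1A crossed with YJM789, strains whose genomes differ at many single nucleotides. What alleles the HK isolates or MD893-1, MD893-2 and LSY3454-2 carry is not given in the sources used here. The control was the diploid JSC24, whose Cy3-labelled DNA was hybridised together with the Cy5-labelled DNA of each isolate. Nothing in the labels says whether A and B of HK10, or of HK12, come from separate cultures, so their spread may be technical.

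Budding yeast diploids carry 2 copies of each chromosome, and a break in 1 copy can be repaired from its sister chromatid or from the other copy. Repair from the other copy in mitotic cells can leave both copies with the same allele, which is called loss of heterozygosity (LOH). RNase H2 cuts DNA at ribonucleotides embedded in it, and the series asked how such cuts relate to genome instability. Where a diploid keeps 1 allele, probes for the other allele lose their signal, so each stretch of LOH can be read as a run of SNPs.

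Each SNP was summarised by d, the mean log2 ratio for its S probes less the mean for its Y probes. S and Y are the letters in the probe names and are not defined in the labels. A heterozygous SNP has d near 0, an S homozygous SNP has d above 0 and a Y homozygous SNP has d below 0. A hidden Markov model assigned each SNP to 1 of these 3 states, and a tract needed 5 SNPs. The SNPs ran from position 24449 to 727004, a span of 703 kb, at a median spacing of 342.5 bp. The widest gap without a SNP, 28.01 kb, lay between 362868 and 390876. Of the 1025 SNPs, 972 had all 4 probes on the array, 50 had 3 and 3 had 2. Each HK isolate gave d at 966 to 982 of them and each zygote at 946 to 1019. The share of chromosome X probes without a value was 6.37% and 8.85% for isolates A and B of HK10, and 7.30% and 5.998% for those of HK12. It was 1.01% to 4.01% over the MD893-1 zygotes and 9.59% to 10.2% over the MD893-2 zygotes.

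In HK10, chromosome X was homozygous over its left part and heterozygous over most of the remainder. HK10 A had 492 homozygous SNPs of 975 measured, 50.5% of the chromosome's SNPs, where tracts held 17.3% of its SNPs over all chromosomes. HK10 B had 483 of 966, 50.0%, where tracts held 13.4% of its SNPs over all chromosomes. Nothing is read from these shares, since this chromosome was chosen for its HK10 pattern. Most of the homozygous SNPs had kept the Y allele. HK10 A had 431 Y homozygous SNPs on chromosome X (11.9% over all chromosomes) and 61 S homozygous SNPs (5.42% over all chromosomes). HK10 B had 423 (11.8% over all chromosomes) and 60 (1.61% over all chromosomes).

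The homozygous SNPs lay in 6 tracts, the same 6 in both isolates, which kept the alleles Y, S, Y, S, Y and Y from left to right. In the model's calls, tracts 1 to 5 followed each other without a heterozygous run between them, from the first SNP at 24449 to 304215, a stretch of 280 kb. With F probes alone, or with SNPs that had all 4 probes measured, a heterozygous run was called between tracts 2 and 3 in both isolates. It ran from 164939 to 170063, or to 172148 in HK10 B with all 4 probes. With a chance of 0.01 to change state it was called in HK10 A, from 166798 to 172148, and not in HK10 B. With a fixed threshold on d in place of the model it ran from 163640 to 172148 in HK10 A and to 183593 in HK10 B. Homozygous runs under 5 SNPs were set to heterozygous in that setting. With all 4 probes, HK10 A also lost tract 5, which left it 5 tracts. Tract 6 stood alone to the right, flanked by heterozygous runs of 131 kb and 283 kb. Together the 6 tracts covered 286 kb in each isolate, 40.8% of the span of the SNPs. Y tracts made up 251 kb and S tracts 35.6 kb of this length. Tract 1 reached the first measured SNP, so its left end is not known.

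**Figure D1:**
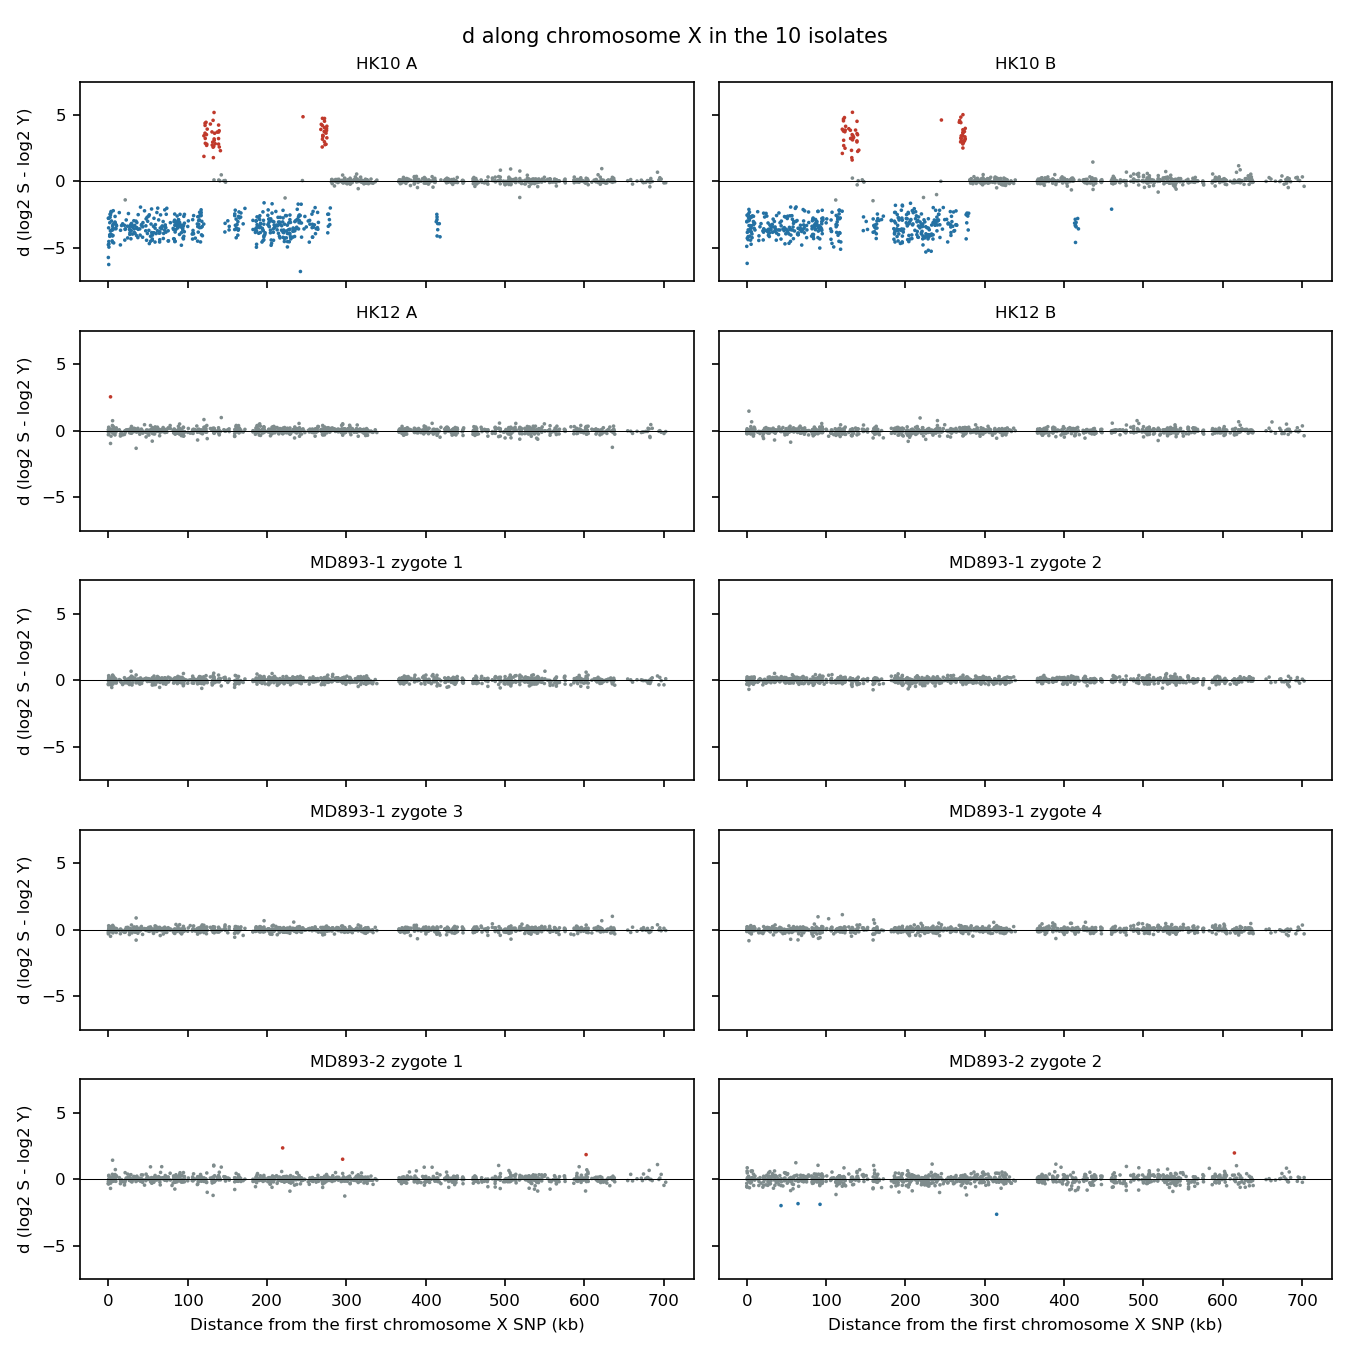
d (log2 S minus log2 Y, vertical axis) of every measured chromosome X SNP against its distance from the first SNP in kb, 1 panel per isolate, with d above 1.5 in red, below -1.5 in blue and the rest in grey. HK10 A and HK10 B leave 0 in 6 tracts, whereas HK12 A and B and the 6 zygotes stay around 0 apart from scattered SNPs.

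Tract 1 was the longest Y stretch. It ran to 144725, over 223 SNPs and 120 kb in HK10 A and over 220 SNPs in HK10 B. Its median d was -3.46 in HK10 A and -3.47 in HK10 B, with an SD over SNPs of 0.72 and 0.71. The SNP nearest to 0 in it had a d of -1.39 in HK10 A and -1.40 in HK10 B, so every measured SNP of this tract lay on the Y side in both isolates.

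Tract 2 kept the S allele, and d was near 0 at several of its SNPs. It ran from 144874 to 170063, over 38 SNPs in HK10 A and 37 in HK10 B. Its median d was 3.13 in HK10 A and 3.22 in HK10 B, and the SD over SNPs was 1.32 and 1.34. That spread was wider than the 0.60 and 0.68 of the other S tract.

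Tract 3 kept the Y allele from 171341 to 289211 over 118 kb between its outermost SNPs. HK10 A had 192 SNPs there with a median d of -3.35, and HK10 B had 186 SNPs with a median d of -3.28. Tract 4 kept the S allele over 7.57 kb, from 292292 to 299865, at 23 SNPs in each isolate. Its median d was the farthest from 0 of the 6 tracts in HK10 A, at 3.74, and was 3.42 in HK10 B. Every measured SNP of tract 4 had d above 2.5 in both isolates.

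Tracts 5 and 6 were short and kept the Y allele. Tract 5 ran from 301002 to 304215 with 7 SNPs in HK10 A and 8 in HK10 B. Its median d was -2.87 in HK10 A and -2.56 in HK10 B, the nearest to 0 of the 6 tracts in each isolate. The strands of the probes differed there, as the F probes gave -3.25 and -3.08 in HK10 A and B and the R probes -1.90 and -1.94. Tract 6 ran from 437739 to 442525, over 4.79 kb and 9 SNPs in each isolate. Its median d was -3.17 in HK10 A and -3.30 in HK10 B.

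Tract 6 lies close to the centromere, the site where the spindle attaches. Set against the centromere's position on the S288C map, its first SNP lay 1.44 kb to the right. That distance holds only if the probe positions count on the same build, which is not given in the sources used here. The last heterozygous SNP before the tract, at 436583, had d of 0.05 in HK10 A and 0.10 in HK10 B. Its first SNP, at 437739, had d of -3.03 and -3.14. In HK12 the 9 SNPs of tract 6 had a median d of -0.03 in isolate A and -0.09 in isolate B. In the zygotes they had a median d of 0.07, -0.04, -0.13 and -0.05 in MD893-1 zygotes 1 to 4, and of 0.01 and -0.10 in MD893-2 zygotes 1 and 2. Both HK10 isolates stood below the other 8 isolates at these SNPs. The SNPs were picked by the d of HK10, so nothing is read from this gap.

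Between the runs of HK10 there were 7 switches of state, and each fell into the same interval between the same SNPs in isolates A and B. At 4 of them the state went straight from homozygosity for 1 allele to homozygosity for the other. Of these, the switch from tract 2 to tract 3 was not direct where a heterozygous run was called there. That left 3 in both isolates with F probes or a fixed threshold on d, and 3 in HK10 B with all 4 probes. In HK10 A with all 4 probes 2 were left, since the loss of tract 5 also removed the switch from tract 4 to tract 5. The other 3 were the right end of tract 5 and both ends of tract 6, where the chromosome passed between Y homozygosity and heterozygosity. The intervals were 149 bp to 3081 bp wide, with a median of 1156 bp. No SNP of the array lay inside any of them, so their width was set by where the array has SNPs.

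The sharpest switch, from Y to S, lay in the 149 bp between 144725 and 144874. At 144725, the ratio of isolate to control was 0.316 and 0.110 for the S probes (F and R strand) and 2.33 and 1.33 for the Y probes in HK10 A. At 144874, the S probes stood at 1.56 and 1.66 and the measured Y probe at 0.152 in HK10 A. In HK10 B, the S probes stood at 0.374 and 0.166 and the measured Y probe at 1.2 at 144725. At 144874 of HK10 B, the S probes stood at 1.62 and 1.65 and the Y probes at 0.150 and 0.0807. Both alleles thus changed sides between neighbouring SNPs, and d moved by 6.63 in HK10 A and by 6.16 in HK10 B.

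The widest switch by the model was from Y to S, in the 3081 bp from 289211 to 292292. There d was -3.08 and then 3.90 in HK10 A, and -3.30 and then 4.44 in HK10 B. The switch back to Y, in the 1137 bp from 299865 to 301002, had d of 3.27 and then -2.47 in HK10 A, and of 3.19 and then -2.49 in HK10 B. At the right end of tract 5 the SNP at 304215 had d of -2.0 in HK10 A and -2.40 in HK10 B. The next SNP, at 305617, had d of -0.04 and 0.12. The 5 SNPs on the heterozygous side of this end and of both ends of tract 6 lay between -0.17 and 0.24 in both isolates.

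The switch from S back to Y at the right end of tract 2 was less well placed than the others. The model put it in the 1278 bp between 170063 and 171341. With the zygotes' median d subtracted per SNP, it lay between 166798 and 170063 in HK10 A and between 165698 and 170063 in HK10 B. The SNP at 170063, however, had d of 0.05 in HK10 A and 0.12 in HK10 B, far from the S level. The last SNP with d of at least 1.5 was 165698, at 2.30 in HK10 A and 2.34 in HK10 B. Placed between SNPs that had reached a homozygous level, this switch lay in the 5643 bp from 165698 to 171341, and the S tract was 20.8 kb long between its outermost SNPs at that level. The other 6 intervals were unchanged under this placement, which was chosen after the values were seen.

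**Figure D2:**
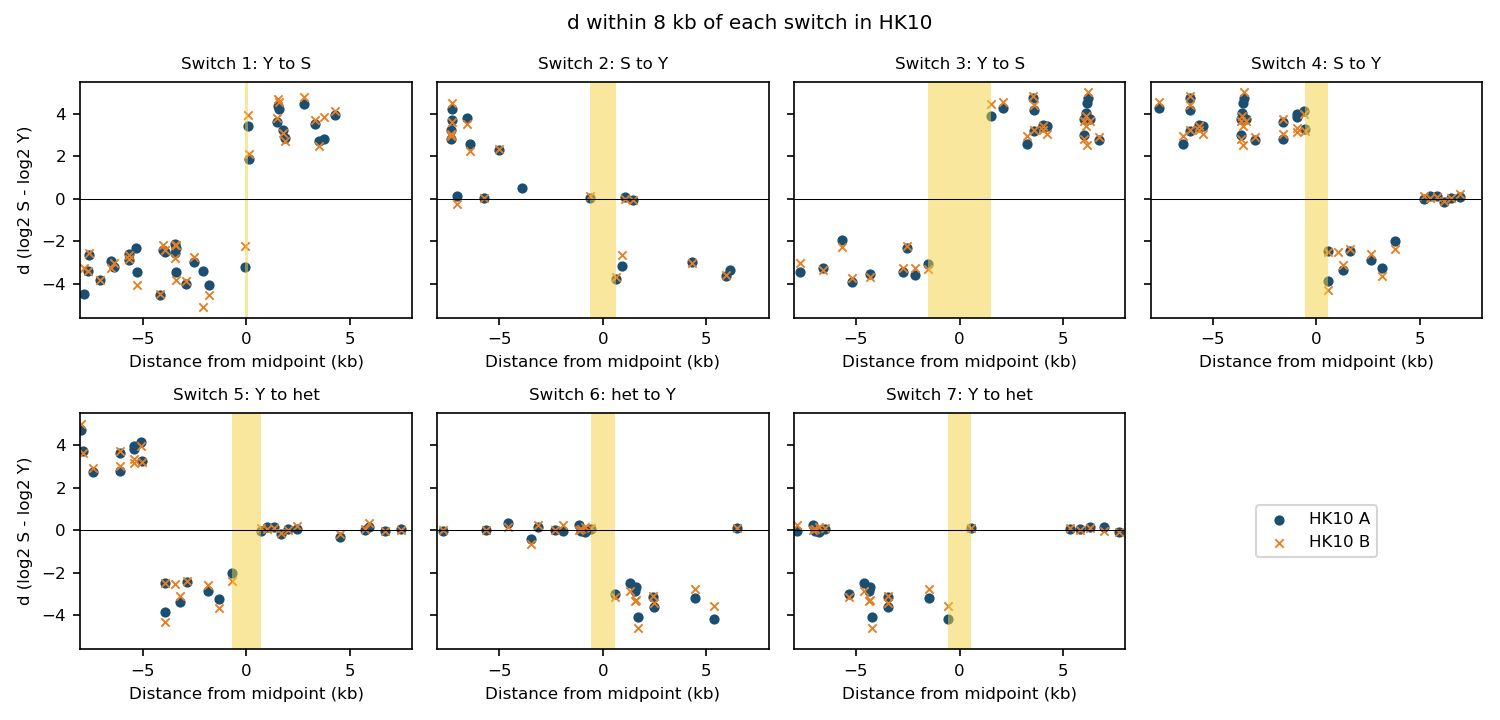
d (log2 S minus log2 Y, vertical axis) of SNPs within 8 kb of the midpoint of each of the 7 switches in HK10 A (circles) and HK10 B (crosses), with distance in kb on the horizontal axis and the interval of the model shaded. SNPs of both isolates lie on opposite sides of each shaded interval, with SNPs near 0 on either side of the interval at switch 2.

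Inside the tracts, 474 SNPs were measured in both HK10 isolates. Of these, 462 (97.5%) had d at or past 1.5 in the direction of their run in both, and 7 (1.477%) had d within 1 of 0 in both. The 7 were 157586, 163640, 164939 and 170063 in tract 2, and 171748, 172148 and 269068 in tract 3. The HK10 ratios of their S and Y probes lay between 0.587 and 1.27. Among the other 5 were 263705 in tract 3, with d of -0.996 in HK10 B, and 269803. At 166798 in tract 2, HK10 A had a d of 0.49 and HK10 B had no value. At 164939 all 8 ratios of HK10 A and B lay between 0.970 and 1.07.

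At these 7 SNPs no isolate showed a homozygous level. The largest distance of d from 0 over all isolates was 0.33, at 163640, which was measured in 7 of the 10. The others were measured in all 10 and lay within 0.32 of 0. Since none of the 10 isolates left 0 at these SNPs, the response of their probes to a lost allele was not seen, and heterozygosity inside the run cannot be told apart from probes that do not respond. Of the 7, 6 lay from 157586 to 172148, on both sides of the switch from S to Y.

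A SNP in tract 3, at 269803, went the other way in both isolates. Its d was 4.85 in HK10 A and 4.61 in HK10 B, within a run of the Y allele. The 10 measured SNPs next to it lay between -6.77 and 0.06 in HK10 A and between -4.55 and 0.01 in HK10 B. The only measured Y probe at 269803 stood at a ratio of 0.0440 in HK10 A and 0.0409 in HK10 B, and the S probes stood at 1.87 and 0.833 in HK10 A and at 1.29 and 0.748 in HK10 B. In HK12 A and B its d was 0.15 and -0.09. A tract needs 5 SNPs, so this SNP was not called, and the S allele at this SNP rests on 3 probes.

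HK10 A and HK10 B had the same state at all 953 chromosome X SNPs measured in both. Within the tracts, the median absolute difference between the isolates in d was 0.24 over 474 SNPs. At the 479 heterozygous SNPs it was 0.09. The largest difference was at 266552, with d of -6.77 in HK10 A and -2.48 in HK10 B, both on the Y side. In the heterozygous part, HK10 B had 3 SNPs with d past 1 or -1 and HK10 A had 1. At 484333 HK10 B had a d of -2.09, where HK10 A had 0.05 and the 10 neighbouring SNPs of HK10 B lay between -0.15 and 0.21.

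The kept allele lay above and the lost allele far below 0 in each of the 6 tracts, relative to heterozygous SNPs of chromosome X on the same array. Over the 6 tracts the kept allele stood at 0.68 ± 0.05 on the log2 scale in HK10 A and 0.61 ± 0.10 in HK10 B (SD over tracts, n = 6), a 1.60-fold and 1.53-fold ratio. The lost allele stood at -2.65 ± 0.25 in HK10 A and -2.65 ± 0.30 in HK10 B, 0.159 of its heterozygous level in each. The kept allele ranged from 0.60 to 0.73 in HK10 A and from 0.47 to 0.75 in HK10 B. In S tracts it averaged 0.67 and in Y tracts 0.69 in HK10 A, and in HK10 B it averaged 0.56 and 0.64. HK10 A was above HK10 B in tracts 1, 2, 3, 4 and 6, with the widest gap in tract 2, at 0.60 against 0.47. The lost allele was least depleted in tract 5, at -2.22 and -2.07 in HK10 A and B.

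The mean of the linear ratios of both alleles was lower in the tracts than at heterozygous SNPs of the same chromosome. It stood at 0.837 to 0.925 of the heterozygous level over the 6 tracts in HK10 A and 0.814 to 0.930 in HK10 B. At the same positions it stood at 0.967 to 1.04 of that level in HK12 A and B.

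**Figure D3:**
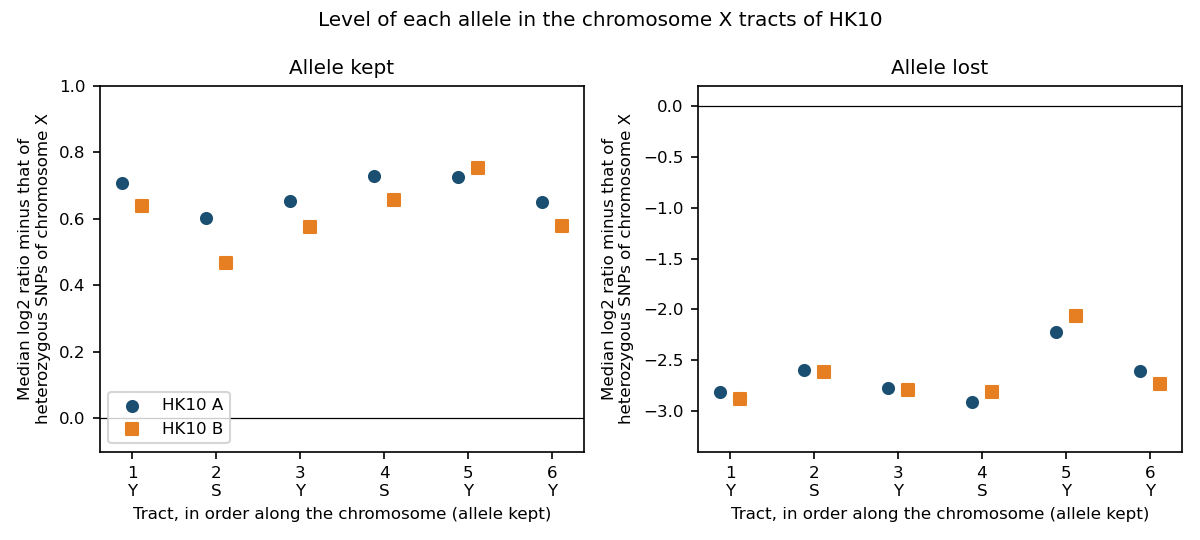
Median log2 ratio of the allele kept (left) and the allele lost (right) in each chromosome X tract of HK10 A (circles) and HK10 B (squares), minus that of heterozygous SNPs of chromosome X on the same array; tracts are in order along the chromosome, with the allele kept below the number. All 12 kept values lie between 0.47 and 0.75 and all 12 lost values between -2.92 and -2.07.

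Among the chromosomes of HK10, X carried the most tracts and the most direct switches between alleles. This rank belongs to the pattern that chose the chromosome, so nothing is read from it. It held 6 of the 15 tracts called in HK10 A and 6 of the 15 in HK10 B, counts that include a tract of chromosome II called in every isolate. Chromosome XII had the next most, with 3 tracts. Of 5 switches straight from 1 homozygous state to the other, chromosome X held 4 in each isolate, or 3 where the switch at the right end of tract 2 is not counted, and chromosome XII held 1. The median absolute d of the tract SNPs was 3.399 on X in HK10 A, near the 3.33 on IV, 3.34 on XII and 3.49 on XVI. A larger share of SNPs was homozygous on XII, at 74.8% in HK10 A and 75.1% in HK10 B, than on X. HK12 A had 1 direct switch, on chromosome I, and HK12 B had 0.

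HK12 was heterozygous along the whole of chromosome X. HK12 A had 0 SNPs in tracts of 968 measured, where tracts held 7.43% of its SNPs over all chromosomes. HK12 B had 0 of 982, where tracts held 12.5%. Their median d was 0.01 and -0.01, and 97.4% and 97.9% of their SNPs had d within 0.5 of 0. Over the stretches where HK10 was homozygous, the median d of HK12 A and B lay between -0.09 and 0.12.

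The zygotes had no tract on chromosome X either, with 0 SNPs in tracts in each of the 6. Over all chromosomes, tracts held 0.108% of the SNPs of the zygotes. This share includes the tract of chromosome II called in every isolate and a run of 5 SNPs on chromosome XV called in several zygotes. The lost allele of that run stood at only -0.81 in MD893-1 zygote 1, so the share is not read as LOH. The median d was 0.00 to 0.01 in the MD893-1 zygotes and within 0.01 of 0 in the MD893-2 zygotes. The share of SNPs with d within 0.5 of 0 was 98.6% to 99.4% in the MD893-1 zygotes, 95.2% in MD893-2 zygote 1 and 91.0% in MD893-2 zygote 2. The SD of d over SNPs was 0.16 to 0.18 for MD893-1, against 0.26 and 0.34 for MD893-2. In MD893-2 zygote 2, 13 scattered SNPs had d past 1 or -1, and 9 had in MD893-2 zygote 1, against 0 or 1 in each MD893-1 zygote. No SNP had d at least 1 away from 0 on every zygote array. The MD893-2 arrays also had the larger shares of probes without a value, whose part in these counts was not tested.

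**Figure D4:**
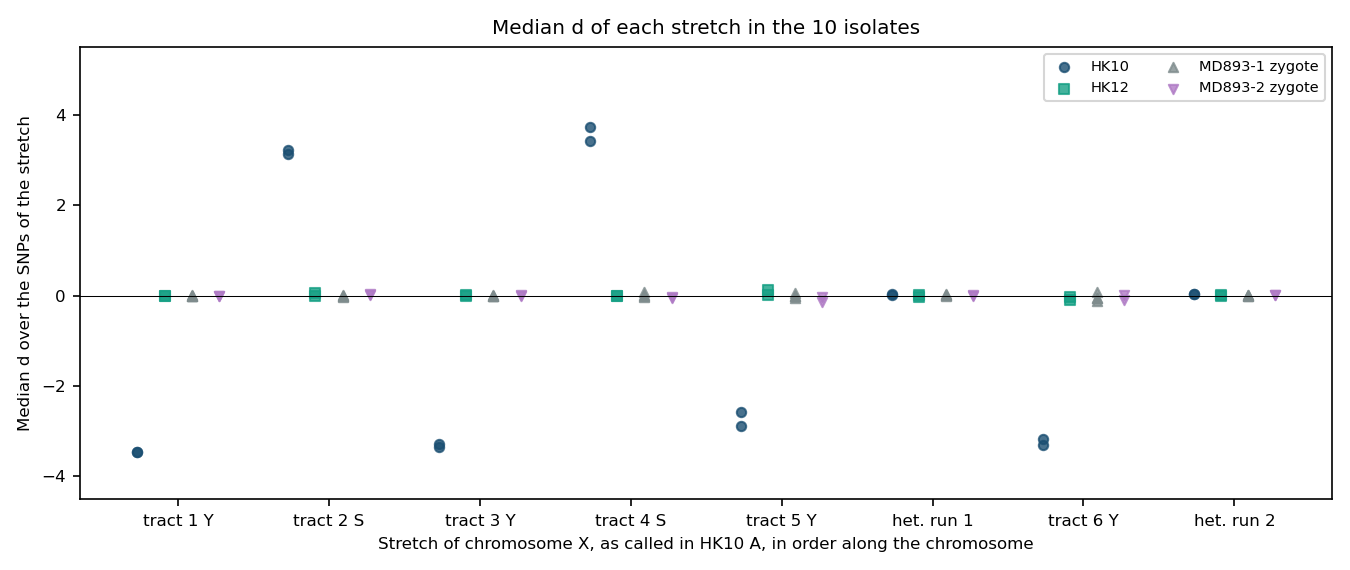
Median d (vertical axis) of the 6 tracts and 2 heterozygous runs of chromosome X, as called in HK10 A, in each of the 10 isolates (1 point each). HK10 lies 2.56 to 3.74 away from 0 in the tracts, while HK12 and the zygotes lie within 0.15 of 0 in every stretch.

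The test of HK12 against the zygotes left HK10 out, though the values of HK10 chose the chromosome on which these SNPs lie. The limma fit on d took 12456 SNPs of all chromosomes. It called 6 of 959 chromosome X SNPs at a Benjamini-Hochberg adjusted p under 0.05, against 7.81% of SNPs over all chromosomes. The SNPs tested and adjusted over include the tracts of HK12, such as 856 and 854 SNPs on chromosome IV in HK12 A and B. The 7.81% is therefore not a share for heterozygous SNPs, and how many calls lie in those tracts was not counted. At an unadjusted limma p under 0.05, 39 of the 959 (4.07%) passed, against 15.5% over all chromosomes. Of the 6, 3 were higher and 3 were lower in HK12. The fit took HK12 A and B as separate isolates, though they share 1 name and may not come from separate cultures. For HK12, the SEs and p values that follow may thus rest on technical spread. The median difference over the 959 SNPs was -0.01, against -0.0014 over all SNPs tested. Over the fits that left out 1 zygote the count was 3 to 7, with 7.55% to 7.88% of SNPs called over all chromosomes. The 3 came without MD893-1 zygote 3. Leaving out an HK12 isolate left 1 array in that group, so no count is read from those fits.

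The largest difference was at 27191, near the left end of the SNP map. Its d was 2.55 and 1.477 in HK12 A and B, against -0.22, -0.36 and 0.05 in the 3 zygotes with a value, MD893-1 zygotes 1, 2 and 4. Both HK12 values lay above those of the zygotes. HK12 was 2.19 ± 0.33 higher (SE; limma adjusted p = 0.0126). The Y probes stood at ratios of 0.0628 and 0.587 in HK12 A and at 0.404 in HK12 B, where 1 Y probe had a value, while the 4 S ratios stood at 1.03 to 1.26. The 10 SNPs next to it lay between -0.95 and 0.10 in HK12 A and between -0.18 and 0.04 in HK12 B. Without MD893-1 zygote 1 the adjusted p was 0.0727 and without MD893-1 zygote 2 it was 0.0692.

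At 543027, in the part where HK10 was heterozygous, d was -0.63 and -0.73 in HK12 A and B, against 0.26, 0.11, 0.07 and 0.33 in MD893-1 zygotes 1 to 4 and 0.14 and 0.69 in MD893-2 zygotes 1 and 2. HK12 was lower by 0.94 ± 0.16 (SE), a difference of -0.94 with a limma adjusted p of 0.00378. The HK10 isolates, which were not in this fit, had d of -1.21 and -0.81, so that all 4 HK isolates lay below all 6 zygotes. Their S allele stood at -1.24 and -1.10 in HK10 A and B and at -0.85 and -0.84 in HK12 A and B.

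The remaining named SNPs differed less. At 264820 d was 0.55 and 0.77 in HK12 A and B, against -0.17 to 0.28 in the 6 zygotes (difference 0.64, limma adjusted p = 0.00851), and without HK12 B the adjusted p was 0.0927. The strands disagreed there, with a difference of 1.07 for F probes (limma adjusted p = 0.0138) and 0.14 for R probes (limma adjusted p = 0.815). At 545804 d was -0.22 and -0.24 in HK12 A and B, against -0.03 to 0.42 in the 6 zygotes. At 531933 it was -0.12 and -0.07 in HK12 A and B, against 0.22 to 0.51 in the 5 zygotes with a value. Neither pair overlapped the zygotes, and the differences were -0.43 and -0.42, with limma adjusted p of 0.0483 and 0.0358. These calls were lost when either HK12 isolate was left out, at adjusted p of 0.130 and 0.223 for 545804 and of 0.138 and 0.130 for 531933. Without MD893-1 zygote 2 they were 0.0885 and 0.0804, and without MD893-1 zygote 4 they were 0.0993 and 0.0699. Without MD893-1 zygote 3 they were 0.0518 and 0.0781, and for 545804 leaving out MD893-2 zygote 1 or 2 gave 0.0967 and 0.0886.

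Between the crosses, 1 of 916 chromosome X SNPs passed the limma test on d (adjusted p under 0.05), against 0.151% of 11960 SNPs over all chromosomes. At 561570 d was 0.10, -0.06, -0.15 and -0.18 in MD893-1 zygotes 1 to 4, against -0.74 and -0.91 in MD893-2 zygotes 1 and 2, with no overlap. The difference was 0.76 ± 0.11 (SE; limma adjusted p = 0.0486). With F probes alone it was 0.44 (limma adjusted p = 0.210), and the 1 SNP called with those probes was a different SNP, lower in the MD893-1 zygotes. The count was 0 when any 1 of the MD893-1 zygotes was left out, where 0 to 0.0334% of SNPs passed over all chromosomes. Leaving out an MD893-2 zygote left 1 array in that group, so no count is read from those fits. The arrays differed in noise on chromosome X. It was 0.14 to 0.17 in the MD893-1 zygotes and 0.16 and 0.26 in MD893-2 zygotes 1 and 2. With array weights 0 chromosome X SNPs passed in limma, against 0.092% of SNPs over all chromosomes. At an unadjusted limma p under 0.05, 91 (9.93%) passed with these weights, against 10.95% over all chromosomes. The weighted difference at 561570 was 0.70 (limma adjusted p = 0.0673), close to the unweighted one.

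The signal of both alleles together, s, is the mean of their log2 ratios. Its median over the 447 SNPs heterozygous in all 10 isolates was 0.041 and 0.045 for HK10 isolates A and B and 0.048 and 0.041 for HK12 isolates A and B. The zygotes had medians of -0.0019, 0.017, -0.0012 and -0.00085 for MD893-1 zygotes 1 to 4 and 0.014 and -0.00072 for MD893-2 zygotes 1 and 2. The 4 HK isolates lay above all 6 zygotes, at 0.044 ± 0.0035 (SD, n = 4) against 0.0043 ± 0.0086 (SD, n = 6).

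The difference of 0.0395 is given with no test, since HK10 is among the HK isolates. With R probes alone it was 0.0175. Longer chromosomes had lower s in HK10 A, where the median at heterozygous SNPs was 0.68 on the short chromosome I and -0.20 on the long chromosome XII. Once a quadratic in the log of chromosome length, drawn through the remaining chromosomes, had been subtracted, the difference on X was 0.0051.

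**Figure D5:**
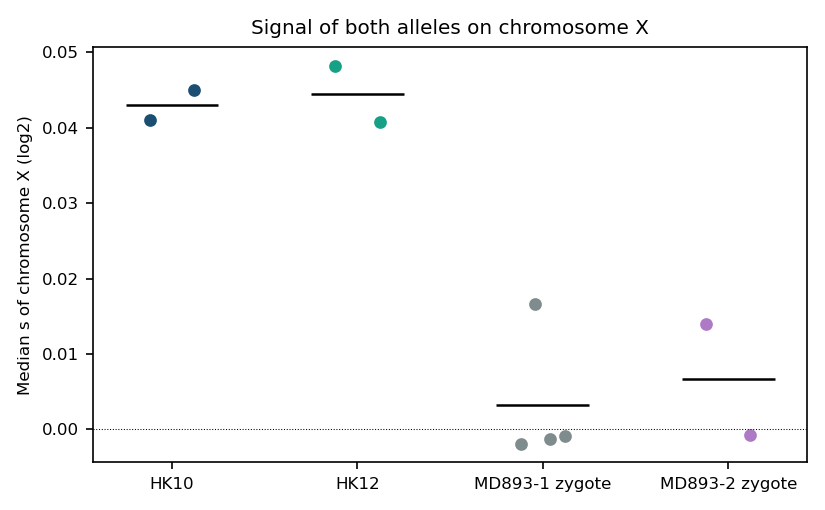
Median s (log2, vertical axis) of chromosome X at the SNPs heterozygous in all isolates, 1 point per isolate, with the group mean as a bar. HK10 and HK12 lie at 0.041 to 0.048, above the zygotes at -0.0019 to 0.017.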

How the data were processed

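Genomic DNA from 10 isolates was compared with control DNA on SNP arrays. Isolate DNA carried Cy5 and control DNA Cy3, per the labels. The deposited values are linear ratios of isolate to control, 1 per probe, and the ratios of each array average 1. The column names point to GenePix files. How features were filtered, how background was handled and which build the positions use is not given in the sources used here, so no gene or sequence was placed on the positions. Each column was tied to its isolate by the strain name of the sample source. For the zygotes that name reads MD891 or MD892, and groups follow the titles.

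Log2 ratios were centred per array by the median. S and Y probes were averaged per SNP, and d was centred on the median over all SNPs of an array. The model used t distributions (4 degrees of freedom) with centres 0, 3 and -3, a scale of 0.8 for the homozygous states and a chance of 0.0001 per SNP to change state. The limma test (limma 3.58.1, R 4.3.3) took SNPs with at least 2 arrays per group. Plans named strands W and C, and the probe names read F and R. Both steps were tested on simulated data. An exact test of s was planned and is not reported, since the log2 ratios of HK10 chose the chromosome. SNPs were named by rule: tracts, switches, SNPs against their run, and the 5 largest limma differences. The SNPs 266552, 484333 and 269803 and the placement of switches by level were chosen after values were seen. The members and lists were chosen with earlier results of these data known. The number of arrays limits the precision.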

Additional observations from a re-analysis of the deposited data

Results flagged for a closer look

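Of 8 measures of chromosome X compared among the 4 MD893-1 zygotes, 1 put a zygote far from the others. The median d was 0.0096 in zygote 3 and 0.002 to 0.003 in the other 3. Chance gives such a gap in about 1 of 20 groups.

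At 17 positions of chromosome X the array has probes for 1 allele, so they gave no d and entered no comparison above. Of these, 6 lay inside the tracts of HK10, and at these 6 the log2 ratio of both HK10 isolates moved the way the tract's state would have it, with 1 value inside the range of the other 8 isolates. In Y tracts, the S probes at 76156 stood at -0.995 and -1.08 in HK10 A and B (-0.24 to 0.02 in the other 8 isolates) and those at 213938 at -0.912 and -1.22 (0.08 to 0.37). The Y probes at 250233 stood at 0.881 and 0.931 (-0.09 to 0.28), and those at 278277 at 0.665 and 0.65 (0.03 to 0.54). At 278187 the Y probe stood at 0.863 in HK10 A (-0.14 to 0.78), and HK10 B, at 0.70, lay within that range. In the S tract, the Y probes at 294876 stood at -0.4995 and -0.66 (-0.17 to 0.06). The falls at these positions were smaller than those of the lost allele at SNPs with both alleles.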

How the results depend on the processing

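The tract counts of HK10 were 6 in the main setting. With a fixed threshold on d in place of the model, under which any SNP short of it ends a run, they were 10 in HK10 A and 11 in HK10 B, and the switches numbered 16 and 18 in place of 7. With a minimum of 10 SNPs, which leaves out tracts 5 and 6, there were 4 switches in each. With only SNPs that had all 4 probes measured, HK10 B had 307 homozygous SNPs and HK10 A had 5 tracts. The direct switches numbered 4 in the main setting and 2 to 4 over the alternatives. In HK12 and the zygotes, 0 tracts were called on chromosome X under every alternative run. The levels of the kept and lost alleles moved by less than 1 SD over tracts under each alternative run. The difference in s was -0.151 over all chromosome X SNPs, where the tracts of HK10 enter, 0.0051 with the length curve, 0.0175 with R probes and 0.0395 per HK name. For HK12 against the zygotes, limma called 1 chromosome X SNP with F probes, 2 with R probes, 3 with SNPs measured on all arrays and 2 with the MD893-2 zygotes alone. Over all chromosomes the shares called were 7.52%, 7.25%, 7.82% and 7.19%. Leaving out 1 zygote gave a count of 3 to 7 on chromosome X, with 7.55% to 7.88% called over all chromosomes. When HK12 isolates are also left out in turn, both ends of the range come from fits with 1 HK12 array. Nothing is read from that wider range. The count was 2 to 8 when 1 array was left out. For the crosses it was 0 with R probes and 0 with array weights (67 and 91 at an unadjusted p under 0.05), and 0 to 47 when 1 array was left out. The 47 came from a fit that left 1 MD893-2 zygote, so nothing is read from it. Over all chromosomes 0 SNPs passed with R probes and 0.092% with array weights (10.93% and 10.95% at an unadjusted p under 0.05). The replicate block on zygote numbers 1 and 2 gave 2 chromosome X SNPs, or 0.218% of those tested. The same 4 zygotes without it gave 0 (55 at an unadjusted p under 0.05). Over all chromosomes 0.343% passed with the block and 0.00836% without it (6.47% at an unadjusted p under 0.05). The array weights and the same-zygote comparison were chosen after seeing the data. The numbers are not said to pair zygotes. Deviations from the cross means had r of -0.21 over SNPs between same-numbered zygotes and 0.21 between differently numbered ones. The deviations of the 2 MD893-2 zygotes mirror each other, so the opposite signs follow from the design and nothing is read from them. The spacing of SNPs limits the width of each switch.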
